A study of Drosophila melanogaster with 6 samples.

Results

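The genes described here are the Rab GTPases that could be read singly on an array of Drosophila S2 cells fed with apoptotic cell fragments. S2 is an embryonic Drosophila line with macrophage-like behaviour. Members were the probe sets of 1 gene each whose annotated symbol is Rab followed by digits with at most 1 letter, or RabX followed by a digit. Where a gene had several such probe sets, that of the highest mean over the 6 arrays was taken. The rule found 21 genes of the 11982 genes with a single-gene probe set. The current RefSeq gene table lists 33 Rab genes. Of the other 12, Rab9Fb carries 2 letters after its digits, 4 (Rab9D, Rab9Db, Rab9E and Rab9Fa) share 1 probe set of several genes, and 7 (Rab1, Rab4, Rab5, Rab6, Rab7, Rab8 and Rab11) are not analysed here.

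The study compared 2 groups of 3 arrays, labelled as biological replicates. In the first group, S2 cells received medium alone; in the second, 25 apoptotic cell fragments per cell. Both were left at 25 °C for 1 h. The fragments had been collected by centrifugation from S2 cells treated with cycloheximide, an inhibitor of protein synthesis, at 1.5 µg/ml for 24 h. The medium of this incubation held 1% serum in both groups, and the cells were maintained with 10% serum. The labels give no genotype beyond the line and do not say whether a replicate number marks a shared day. RNA or cycloheximide that came along with the fragments cannot be told apart from a response of the cells. Each value comes from a bulk sample, so fewer cells with a transcript and less RNA per cell cannot be told apart either.

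Rab proteins are small GTPases that switch between an active form bound to membrane and an inactive form held in the cytosol. Exchange factors switch them on, GTPase activating proteins switch them off, and the active form recruits effectors such as tethers and motors. Each Rab marks particular compartments. A phagosome that has taken up an apoptotic cell matures by exchanging early endosomal Rabs, classically Rab5, for late ones, classically Rab7, before it fuses with lysosomes, while recycling Rabs such as Rab4, Rab11 and Rab35 return membrane to the cell surface. As the classical early, late and recycling genes are not analysed here, these 3 steps are represented only by the less studied members of each.

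The files hold log2 values for 18769 probe sets other than manufacturer's controls, with array medians between 6.45 and 6.46. In 11528 of them (61.4%) the values moved by less than 0.01 log2 units over the 6 arrays; these are called flat, the other 7241 varying. A flat value can show no change and does not show that a gene is absent. Over all of these probe sets, Pearson's r was 0.9993 between medium-alone replicates 1 and 2, 0.9900 and 0.9907 between these and replicate 3, and 0.9974 to 0.9988 among fragment arrays. Of 12 hemocyte markers, 7 had medium-alone means above 8.18, the median of the varying probe sets, among them the GATA factor gene srp (10.68) and the collagen gene Col4a1 (11.20), but NimC1 and Sr-CI, which encode phagocytosis receptors, were flat at 6.09 and 5.94. Of 10 markers of other cell types, 7 were flat and 0 were above 8.18 in medium alone; the highest was the neuronal gene elav, at 8.14 in medium alone and 8.43 with fragments.

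None of the 21 Rab genes passed the test between fragments and medium alone. The largest differences were those of Rab30 (0.36 log2 units, or 1.29-fold higher with fragments), Rab14 (0.34), Rab10 (0.27) and Rab19 (0.27), and Rab39 (-0.11) was the only member whose fragment arrays all lay below those of medium alone. In limma, with Benjamini-Hochberg adjusted p-values computed on the full table of 18769 probe sets, 0 members reached an adjusted p under 0.05, against 0.304% of the probe sets tested. An unadjusted p under 0.05 was reached by 3 members, Rab10, Rab30 and Rab19, and by 10.8% of all probe sets. With the flat probe sets left out and the test rerun on the varying part of the table, 0 of the 10 varying members passed (6.85% of the varying probe sets did), and 4 had an unadjusted p under 0.05, against 23.6%. The median log2 difference was 0.00 over the 21 members, as over all probe sets. It was 0.16 over the 10 varying members and 0.00 over the varying probe sets, a description only, since a gene can count as varying because its groups differ. On a scale set by the hybridisation spikes (foreign transcripts put on each array in known amounts), every difference was larger by 0.26 log2 units. On that scale 5 members passed, all of them varying and higher, as did 8.98% of all probe sets, 7.95% being higher. These shares count the flat probe sets too, and no flat member passed there. The share of the varying probe sets that passed on that scale was not computed. P-values on the spike scale follow the size of the difference more than the spread of each gene.

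**Figure D1:**
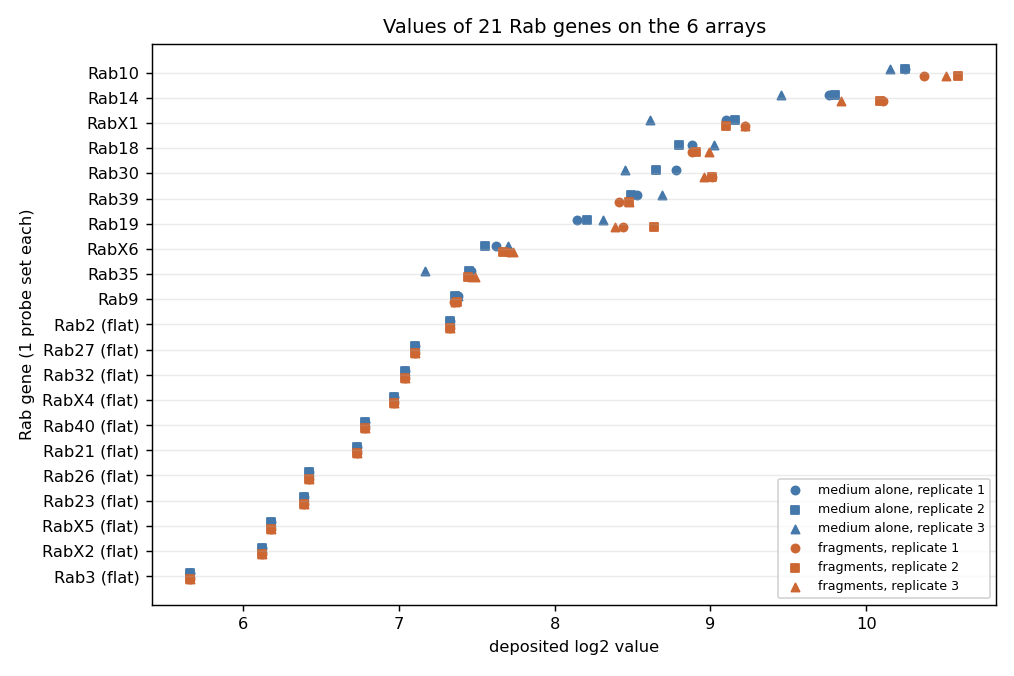
Deposited log2 value (x axis) of each of the 21 Rab genes (y axis, ordered by mean) on the 3 arrays of medium alone (blue) and the 3 fragment arrays (orange), with the marker shape giving the replicate number. The 11 flat genes sit at 7.33 or below, and Rab10 and Rab14 stand at the top on each array.

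Among the Rabs of early endosomes, Rab14, Rab21 and RabX5 were measured, and only Rab14 varied. Rab14 acts between endosomes and the Golgi and, in Drosophila hemocytes, in the passage of phagosomes to lysosomes. It read 9.76, 9.80 and 9.45 in medium alone and 10.11, 10.09 and 9.84 with fragments. Every fragment array was above every array of medium alone, but the gap between the lowest fragment array and the highest of medium alone was narrow, and replicate 3 was the lowest array of its own group in both. The difference was 0.34 log2 units with a standard error (SE) of 0.139 and a 95% interval of -0.04 to 0.72 (limma adjusted p = 0.509 in the full table, 0.177 in the varying part). Without medium-alone replicate 3 it was 0.23. Rab21, which acts in integrin endocytosis and in the protrusions of hemocytes, was flat at 6.73, and RabX5 was flat at 6.18.

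The Rabs of late endosomes and lysosomes measured here were Rab39, Rab9, Rab2 and Rab32. Rab39, a Rab linked to lysosomes and autophagy, read 8.53, 8.49 and 8.69 in medium alone and 8.41, 8.48 and 8.48 with fragments. The groups did not overlap, but the highest fragment arrays lay just under medium-alone replicate 2. The difference of -0.11 (SE 0.066, 95% interval -0.29 to 0.07) did not pass (limma adjusted p = 0.655), was -0.05 without medium-alone replicate 3, and became 0.15 on the spike scale. Rab9, which in mammalian cells acts in transport from late endosomes to the Golgi, varied by only hundredths of a unit, from 7.36 to 7.38 in medium alone and from 7.35 to 7.37 with fragments. Its groups overlapped, with a difference of -0.01 and a 95% interval of -0.03 to 0.01 (limma adjusted p = 0.785); this narrow interval rests on its own small spread, and among the varying probe sets it was -0.07 to 0.06. Rab2, which brings autophagosomes and late endosomes to lysosomes in Drosophila, and Rab32, which acts in the making of pigment granules in the fly eye, were flat at 7.33 and 7.04.

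Of the recycling Rabs, Rab35 alone was measured. Rab35 returns membrane from endosomes to the surface and directs actin assembly at the phagocytic cup. Its values were 7.46, 7.45 and 7.17 in medium alone and 7.45, 7.44 and 7.49 with fragments. The 3 fragment arrays matched medium-alone replicates 1 and 2 within hundredths of a unit, and medium-alone replicate 3 was the single low array. The difference of 0.10 (SE 0.095, 95% interval -0.15 to 0.36, limma adjusted p = 0.798) became 0.01 without that array.

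The secretory and Golgi Rabs held 4 of the 10 varying members. They also held 3 of the 4 members whose fragment arrays all lay above those of medium alone. That was the case for 14.7% of the varying probe sets. Rab10, which directs secretion of basement membrane proteins in fly epithelia, had the highest values of all members. They were 10.25, 10.25 and 10.15 in medium alone and 10.37, 10.59 and 10.51 with fragments. The groups stood clear of each other, with a difference of 0.27 (SE 0.070, 95% interval 0.08 to 0.47), but the test over all probe sets was not passed (limma adjusted p = 0.324, and 0.08 among the varying probe sets).

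Rab30, a Golgi Rab, read 8.78, 8.65 and 8.45 in medium alone and 9.01, 9.01 and 8.96 with fragments. The fragment arrays were tightly grouped and all above the widely spread arrays of medium alone. The difference was 0.36 (SE 0.097, 95% interval 0.10 to 0.63, limma adjusted p = 0.334 in the full table, 0.0794 in the varying part). Without medium-alone replicate 3 the difference was 0.27; it passed there among the varying probe sets (limma adjusted p = 0.0346), as did 12.1% of them, but not over all (0.271). With another array left out its adjusted p among the varying probe sets was 0.0714 to 0.236.

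Rab19, a Rab of Golgi and apical traffic, read 8.14, 8.21 and 8.31 in medium alone and 8.44, 8.64 and 8.39 with fragments. The groups did not overlap, and unlike Rab14 and Rab30, medium-alone replicate 3 was the highest of its group, so that the difference of 0.27 (SE 0.091, 95% interval 0.02 to 0.52, limma adjusted p = 0.423) was 0.32 without that array. Rab18, which mammalian cells use at the endoplasmic reticulum and on lipid droplets, read 8.88, 8.80 and 9.02 in medium alone and 8.88, 8.91 and 8.99 with fragments. Its groups overlapped fully, and a difference of 0.03 with a 95% interval of -0.16 to 0.22 (limma adjusted p = 0.93) leaves room for changes of that size in either direction. RabX4 was flat at 6.97.

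In all, fragment arrays lay wholly above medium alone in 4 of the 10 varying members and wholly below in 1, against 14.7% and 17.4% of the varying probe sets. Of the 4, 1 was an early endosomal Rab (Rab14) and 3 were secretory or Golgi Rabs (Rab10, Rab19 and Rab30). Whether early, late, recycling and secretory Rabs differed from each other was not tested, as they had 1, 2, 1 and 4 varying members.

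**Figure D2:**
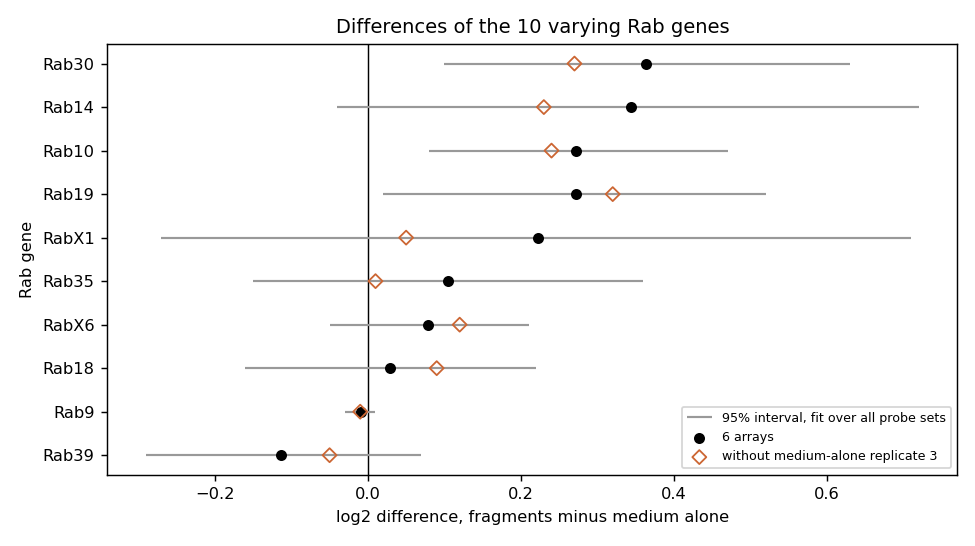
Log2 difference of fragments minus medium alone (x axis) for the 10 varying Rab genes (y axis). Black points use the 6 arrays, grey lines are 95% intervals from the fit over all probe sets, and open diamonds leave out medium-alone replicate 3, where RabX1 goes from 0.22 to 0.05 and Rab35 from 0.10 to 0.01.

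The Rabs of regulated secretion were all flat. Rab3, the Rab of synaptic vesicles, had the lowest value of all members, at 5.66, and only 0.9% of the probe sets tested read as low or lower. Rab26 was flat at 6.42, as was its other probe set at 6.01, and Rab27, which docks secretory granules in mammalian cells, was flat at 7.10. The neuronal marker nSyb, a synaptic vesicle fusion gene, was flat at 6.51.

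Of the remaining members, RabX1 and RabX6 varied. RabX1, an endosomal Rab known from the Drosophila mutant chrowded, was not placed in the early, late or recycling group here. It read 9.10, 9.16 and 8.61 in medium alone and 9.22, 9.10 and 9.22 with fragments. Medium-alone replicate 3 was the low array, 0.52 units under the mean of replicates 1 and 2, and the other 5 arrays overlapped. The difference of 0.22 (SE 0.178, 95% interval -0.27 to 0.71, limma adjusted p = 0.759) was 0.05 without that array. RabX6 read 7.62, 7.55 and 7.70 in medium alone and 7.70, 7.67 and 7.73 with fragments, with overlapping groups and a difference of 0.08 (SE 0.047, limma adjusted p = 0.667), which was 0.04 without medium-alone replicate 2 and 0.12 without replicate 3. Rab40, whose product carries a SOCS box and works with a ubiquitin ligase, was flat at 6.78. Rab23, a Rab of planar cell polarity in the fly, was flat at 6.39, and RabX2 at 6.12. The probe set shared by Rab9D, Rab9Db, Rab9E and Rab9Fa was flat at 5.96 and that of Rab9Fb at 6.02.

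Medium-alone replicate 3 stood at 1 end of its group in each of the 10 varying members. How often it did so over all varying probe sets was not counted. This array also stood apart over all probe sets, with Pearson's r of 0.9900 and 0.9907 to replicates 1 and 2, against 0.9993 between these. It was the lowest array of medium alone for Rab10, Rab14, RabX1, Rab30 and Rab35, and the lowest of all 6 arrays for these 5. It was the highest of medium alone for Rab18, Rab39, Rab19, RabX6 and Rab9. Against the mean of replicates 1 and 2 it was lower by as much as 0.52 (RabX1) and higher by up to 0.19 (Rab39). Sign left out, the median of this difference was 0.18 over the 10 members and 0.13 over all varying probe sets. Its part in the results was not tested beyond the values given without it.

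**Figure D3:**
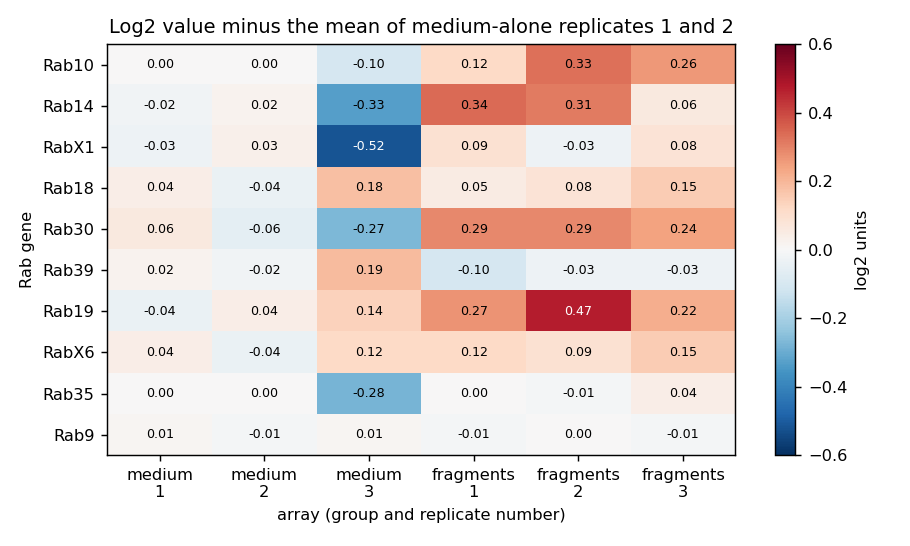
Log2 value of each varying Rab gene (rows) on each array (columns) minus the mean of medium-alone replicates 1 and 2, in log2 units, with blue for lower and red for higher. Medium-alone replicate 3 reaches -0.52 for RabX1 and 0.19 for Rab39, and fragment replicate 2 reaches 0.47 for Rab19.

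Ranked by deposited value over the 6 arrays, the members ran from Rab10 (mean 10.35, above 95.2% of the probe sets tested or equal to them) and Rab14 (9.84, 93.0%) through RabX1 (9.07), Rab18 (8.91), Rab30 (8.81), Rab39 (8.51), Rab19 (8.36), RabX6 (7.66), Rab35 (7.41) and Rab9 (7.37) to the flat genes. Probe sets differ in how strongly they bind their transcripts, so this is an order of array signal and not of transcript number. Rab10 was above Rab14, and Rab14 above RabX1, on 6 of 6 arrays. Rab19 was likewise above RabX6 on 6 of 6. From RabX1 to Rab19 neighbours were not separated: RabX1 exceeded Rab18 on 5 of 6 arrays, Rab18 exceeded Rab30 on 4, Rab30 exceeded Rab39 on 5 and Rab39 exceeded Rab19 on 4. Rab35 and Rab9 also crossed, with Rab35 higher on 5 of 6 arrays. Between the group means, Rab30 was below Rab18 in medium alone and above it with fragments, Rab19 exchanged places with Rab39, and Rab35 with Rab9.

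The 11 flat members had values between 5.66 and 7.33, and the lowest varying member, Rab9, had a mean of 7.37. In the lists of other genes given below, a flat value was not always a low one: Snx3, a sorting nexin of early endosomes, was flat at 11.46, above the mean of Rab10.

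Genes that control Rabs or act with them were examined in 5 lists, with 62 genes measured, 18 of them flat. None passed over all probe sets (0 of 62 in limma, against 0.304% of all probe sets, with 8 at an unadjusted p under 0.05, 1 of them flat, against 10.8%). With the flat probe sets left out, 1 rose and 2 fell of the 44 varying genes, against 2.29% and 4.56% of the varying probe sets. Their median log2 difference was 0.00, as over all probe sets.

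Before a Rab can bind membrane, the escort protein Rep presents it to the enzyme that attaches its lipid anchors, and Gdi later extracts it from membranes. RabGGTa, the alpha subunit of that prenylating enzyme, read 9.05, 9.12 and 8.75 in medium alone and 9.67, 9.54 and 9.61 with fragments. All fragment arrays were above all arrays of medium alone, by 0.63 log2 units or 1.55-fold (limma adjusted p = 0.211 in the full table, 0.0319 in the varying part). The second call was lost without any 1 array other than medium-alone replicate 3, with adjusted p between 0.0593 and 0.128. Without that replicate the adjusted p was 0.0072, and 12.1% of the varying probe sets passed. Rep and Gdi differed by 0.09 and 0.00 and did not pass (limma adjusted p = 0.74 and 1), although Gdi had a high level, between 11.15 and 11.24 on the 6 arrays.

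Among 18 measured exchange factors, brun, which encodes a subunit of the TRAPP complex that activates Rabs at the Golgi, fell among the varying probe sets. It read 8.79, 8.90 and 8.62 in medium alone and 7.94, 7.96 and 8.07 with fragments. The groups were wide apart, and the log2 difference was -0.78, or 1.72-fold lower (limma adjusted p = 0.105 in the full table, 0.00994 in the varying part). Without medium-alone replicate 1, fragment replicate 1 or fragment replicate 2 the second value was 0.0511, 0.0573 and 0.0578. Without medium-alone replicate 2, medium-alone replicate 3 or fragment replicate 3 it was 0.0342, 0.00336 and 0.0279. In these last 3 settings 2.53%, 12.1% and 4.39% of the varying probe sets passed. Rich, which encodes a Rab6 exchange factor, read 8.53, 8.52 and 8.32 in medium alone and 7.69, 7.54 and 8.04 with fragments. Its difference of -0.70 did not pass (limma adjusted p = 0.286, and 0.0535 among the varying probe sets). Among the varying ones it passed without medium-alone replicate 3 (0.0416) or fragment replicate 3 (0.0267), as did 12.1% and 4.39% of them. Rabex-5, an exchange factor for Rab5 and Rab21, had a difference of 0.52 (limma adjusted p = 0.463, and 0.142 among the varying probe sets), with every fragment array above every array of medium alone. Medium-alone replicate 3 was its low array, and without it the difference was 0.34.

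Of 12 measured GTPase activating proteins, 3 of them flat, 0 passed in limma in either fit, against 0.304% of all and 6.85% of the varying probe sets. An unadjusted p under 0.05 in the fit over all probe sets was reached by 2 of the 12 and by 10.8% of all probe sets. The largest difference was that of wkd, whose product turns off Rab35 in the fly trachea. It read 8.10, 8.09 and 7.57 in medium alone and 8.78, 8.66 and 8.62 with fragments, a difference of 0.77 (limma adjusted p = 0.287 in the full table, 0.0539 in the varying part). Without medium-alone replicate 3, the low array of its group, the second value was 0.0067, and 12.1% of the varying probe sets passed. TBC1D16 and Tbc1d15-17 differed by -0.17 and 0.10 (limma adjusted p = 0.456 and 0.586), the first of which became 0.09 on the spike scale.

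Among 12 effectors of early and recycling endosomes, 6 of them flat, 0 passed in limma in either fit. Of all probe sets 0.304% passed, and of the varying ones 6.85%. An unadjusted p under 0.05 was reached by 0 of the 12 and by 10.8% of all probe sets. Counts of 0 among 6 varying genes do not show that the list is unchanged. The 3 of smallest p, Vps8, Vps45 and Rbsn-5, which act in early endosome tethering and fusion, were flat at 7.67, 7.22 and 7.29. Their values moved by 1.58e-07 log2 units or less, so their p-values and this order have no meaning. The largest difference of the list was that of nuf (0.65), given below. In the list of 17 late endosome genes (Rab7 effectors, the HOPS tether, retromer and fusion proteins), Vamp7, a SNARE of fusion with late endosomes and lysosomes, fell among the varying probe sets. It read 10.19, 10.35 and 10.69 in medium alone and 9.41, 9.45 and 9.73 with fragments, a log2 difference of -0.88 or 1.84-fold lower (limma adjusted p = 0.228 in the full table, 0.0359 in the varying part). Medium-alone replicate 3 was the highest array here. The second call held only without that array (0.0227), where 12.1% of the varying probe sets passed. Without any other array the adjusted p was 0.0577 to 0.142. Arl8, a small GTPase that moves lysosomes, differed by 0.21 (limma adjusted p = 0.461).

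**Figure D4:**
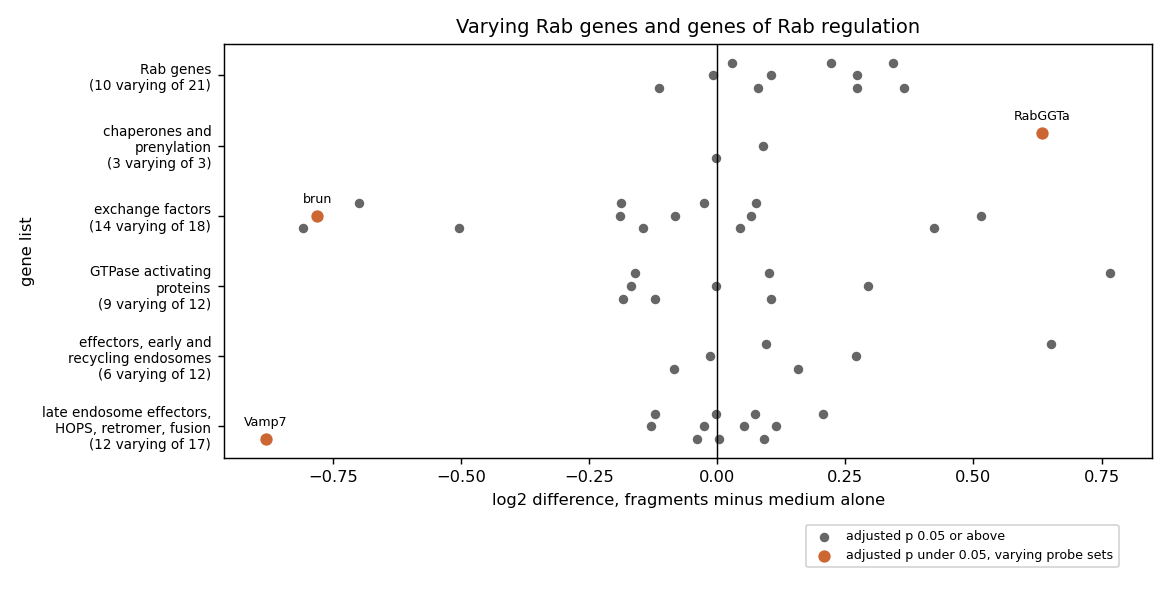
Log2 difference of fragments minus medium alone (x axis) for each varying gene of the Rab family and of the 5 lists of Rab regulation (y axis, with the number varying of those measured; points are spread vertically only for clarity). Orange points, RabGGTa, brun and Vamp7, passed an adjusted p of 0.05 among the varying probe sets; over all probe sets none did.

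Members were also set beside regulators known to act on them, pairs chosen outside the rule for named genes. Over all probe sets 0 of these genes passed in limma, against 0.304% of the probe sets tested. Crag, an exchange factor for Rab10 in fly epithelia, differed by -0.19 (limma adjusted p = 0.785) against 0.27 for Rab10. It read 8.49, 8.50 and 8.0 in medium alone and 8.14, 8.11 and 8.19 with fragments. Medium-alone replicate 3 was thus on the far side of the fragment arrays. Without it, Crag passed among the varying probe sets with a difference of -0.35 (limma adjusted p = 0.00834), as did 12.1% of them. On the spike scale the 6 arrays gave 0.07. For Rab35 the difference was 0.10, against 0.77 for wkd. Rab21 and Rab32 were flat. Sbf, the exchange factor for Rab21 in fly hemocytes, and ca, that of Rab32, differed by 0.05 and 0.07 (limma adjusted p = 0.893 and 0.808). Rabex-5, which also acts on Rab21, differed by 0.52 (limma adjusted p = 0.463), and by 0.34 without medium-alone replicate 3. Of the complex that activates Rab18 in mammals, Rab3-GAP differed by 0.11 (limma adjusted p = 0.759) and Rab3GAP1 was flat at 6.82. Vps39, a subunit of the HOPS tether that Rab2 binds in Drosophila, was flat at 7.86.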

How the data were processed

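Affymetrix expression arrays (6 in all) were hybridised with S2 cell RNA after 150 ng per sample had been turned into biotinylated cRNA by in vitro transcription, per the labels' protocols. The authors deposited log2 values, 1 for each probe set and array. The submitters' processing notes name R 2.7.2; the summarising and normalizing steps are not given in the sources used here. As arrays have no depth, precision is limited by how many there are. The 183 control probe sets were left out, and the values were used as deposited. Of 18769 probe sets, 13647 were annotated with 1 gene, 402 with several, and 4720 were not listed; all 21 members matched the RefSeq gene table.

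Groups came from the sample titles. The test was limma 3.58.1, under R 4.3.3 (lmFit, eBayes without trend, two-sided, Benjamini-Hochberg over all probe sets). The same fit was run on simulated data with independent noise for each probe set and array. Such data lack the array-wide departure of medium-alone replicate 3, and nothing here rests on them. Flat probe sets drew the prior SD to 4.4e-09 (0.123 prior degrees of freedom), so the fit was repeated on the varying ones (0.0612 and 1.36). The labels call the replicates biological without naming separate cultures, so p-values measure only the spread between these samples. Deviations from the group means correlated at 0.44, 0.04 and 0.37 between same-numbered arrays, which does not settle whether the numbers mark pairs. As the labels do not name pairs, the main fit left the arrays unpaired, with the replicate number as a block in an alternative fit. The members and lists were chosen with earlier results of these data known. All members were named; of each regulator list, the 3 of smallest p and any past an adjusted p of 0.05 in either fit. Alternatives were quantile normalization, the spike scale, a replicate block, another variance prior, each array left out, and the mean of a gene's probe sets. Rab sequences were not used here.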

Additional observations from a re-analysis of the deposited data

How the results depend on the processing

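No Rab gene passed over all probe sets under quantile normalization, the replicate block, a trended and robust variance prior, the mean of a gene's probe sets, with symbols of 2 letters counted too, or with any 1 array left out (0 in each). The exception was the spike scale, where 5 passed: Rab10 (0.53, limma adjusted p = 0.00245), Rab14 (0.61, 0.00037), Rab19 (0.53, 0.00245), Rab30 (0.63, 0.000201) and RabX1 (0.48, 0.00816). That scale adds the same 0.26 to each difference, and its p-values carry the variation of the spikes between arrays. Of all probe sets, flat ones included, 8.98% passed there. Every flat member had the same limma adjusted p on that scale, 0.0737, and did not pass. Rab10 and Rab19 also shared 1 value in spite of SEs of 0.070 and 0.091, and RabX1 passed with overlapping groups. These calls therefore follow the size of the difference more than the spread of each gene. With 1 array as well as the flat probe sets removed, a setting added after seeing the data, 0 to 1 Rab genes and 0 to 7 regulators passed, the highest of each without medium-alone replicate 3, where 12.1% of the varying probe sets passed (1.78% to 12.1% over these settings). Regulators past the threshold numbered 3 with the flat probe sets left out, where 6.85% of the varying probe sets passed. Quantile normalization gave 1 (brun), beside 128 of the 18769 probe sets. On the spike scale 13 of 62 passed, 9 higher and 4 lower, beside the 8.98% of all probe sets. That share counts the flat probe sets too, so it is not a like measure for lists in which most genes varied. Of all probe sets, 57 passed in the fit as reported, 496 with the flat ones left out, 128 with quantile normalization, 1685 on the spike scale, 0 with the replicate block (0 Rab genes too), and 0 to 8 with 1 array left out. The sign turned for Rab39 (0.15), Crag (0.07), TBC1D16 (0.09), Trs23 (0.24), Trs31 (0.12) and Bet5 (0.07) on the spike scale, for Rab18 without medium-alone replicate 2 (-0.02), and without medium-alone replicate 3 for Trs23, Trs31 and Rip11; with 1 array left out these ranged from -0.07 to 0.05, from -0.24 to 0.03 and from -0.05 to 0.29. On the spike scale the median difference was 0.26 over the members and for the early, late, exocytosis and other Rabs, 0.43 over the varying members, 0.37 for Rab35 and 0.53 for the secretory Rabs. Without flat probe sets the median rested on the varying members alone, whose own differences did not change. It was then 0.16 over 10 members, 0.34 for early Rabs (1 gene, Rab14), -0.06 for late Rabs (2 genes) and 0.15 for other Rabs (2 genes).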

Other observations

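The TRAPP complex, which activates Rabs at the Golgi, had 7 subunits among the exchange factors; apart from brun they were picked for description after their values were seen. All 6 that varied had a negative difference over the 6 arrays (median -0.19 with the flat Bet3 included), but brun alone passed among the varying probe sets. Trs20 read 7.95, 7.95 and 8.97 in medium alone and 7.41, 7.40 and 7.63 with fragments, a difference of -0.81 that did not pass (limma adjusted p = 0.53 over all probe sets, 0.187 among the varying ones). Trs33 differed by -0.50, Bet5 by -0.19, Trs31 by -0.15 and Trs23 by -0.03 (limma adjusted p between 0.606 and 0.951). In 5 of the 6, all but brun, medium-alone replicate 3 was the highest of its group. Without that array the difference of Trs20 was -0.47, which passed among the varying probe sets (limma adjusted p = 0.0289) as did 12.1% of them, and those of Trs33 and Bet5 were -0.30 and -0.04. Trs31 and Trs23 changed sign, to 0.03 and 0.05, and brun was at -0.85.

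The Rab11 effectors Rip11 and nuf, which serve recycling endosomes and were also picked after their values were seen, went the other way on that array. Rip11 read 10.13, 10.03 and 9.45 in medium alone and 10.05, 9.95 and 10.09 with fragments. Nuf read 8.17, 8.29 and 7.37 in medium alone and 8.83, 8.83 and 8.12 with fragments, a difference of 0.65 with overlapping groups (limma adjusted p = 0.648). It was 0.36 without that array and 0.33 as the mean of all probe sets of nuf, and Rip11 went from 0.16 to -0.05 without the array.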
